A study of Mus musculus with 2 samples.

Results

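Most microRNAs (miRNAs) are cut from their primary transcript by the nuclear enzyme Drosha, but some small hairpins reach the cell by another route. The genes described here were chosen by symbol for such a route, namely Mir320, Mir484, Mir877, Mir1224, Mir702, Mir1981 and Mir1839. Of the 7 listed genes, 6 matched a row of the deposited tables by Ensembl identifier through GENCODE M21, of 1973 genes in all, and Mir1839 was not analysed here. The data are miRNA sequencing of mouse forebrain (strain B6NCrl) at embryonic day 16.5 in 2 libraries of total RNA, replicates 1 and 2. Each library came from a pool of healthy embryos of both sexes; the labels count 41 embryos for replicate 2. No other genotype, stage or treatment is labelled, so values describe a single group, and any test below compares 2 libraries and not 2 conditions. In whole tissue, fewer cells of a type and less RNA per cell cannot be told apart.

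Drosha cuts canonical precursors at the base of a long hairpin, after which Dicer removes the loop and leaves a mature miRNA for Argonaute proteins. A mirtron skips the Drosha step because splicing itself frees a short intron, which is debranched and folds into a hairpin that Dicer can cut. Precursors of Mir320 and Mir484 are known to be made directly by RNA polymerase II with a cap at the first base, so that the start of transcription sets an end of the hairpin. Mir877, Mir1224, Mir1981 and Mir702 are known as mirtrons, and the latter carries bases outside its intron. Mir1839 is known as a product of a small nucleolar RNA-like precursor.

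The sequences of the intron hairpins include annotated splice sites, which in a mirtron are known to stand in for Drosha. How these hairpins are processed was not tested. RefSeq (GRCm38.p6) held the hairpin and mature sequences of 5 of the 6 genes. In each hairpin below, written 5′ to 3′ on the gene's strand, capitals mark the GU that opens the annotated intron and the AG that closes it.
Mir877, chr17:35960730-35960814, minus strand: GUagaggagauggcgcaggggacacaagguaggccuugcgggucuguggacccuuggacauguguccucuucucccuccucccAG
Mir1224, chr16:20604452-20604536, plus strand: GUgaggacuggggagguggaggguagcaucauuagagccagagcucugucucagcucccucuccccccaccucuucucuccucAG
Mir1981, chr1:184822407-184822488, minus strand: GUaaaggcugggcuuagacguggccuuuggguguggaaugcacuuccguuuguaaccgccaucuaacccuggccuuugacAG
Mir702, chr5:136991433-136991541, plus strand: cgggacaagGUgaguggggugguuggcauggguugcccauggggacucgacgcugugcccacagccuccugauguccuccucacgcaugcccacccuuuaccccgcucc

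In GENCODE M21, 3 of these 4 hairpins were identical in extent to a whole intron. Mir877 filled intron 12 of Abcf1 (85 bases), which encodes a protein that acts in translation initiation. Mir1224 filled the last intron of Vwa5b2 (85 bases), and Mir1981 filled intron 5 of Marc2 (82 bases), a mitochondrial reductase gene. Mir702 lay at intron 13 of Plod3 (102 bases), which encodes a collagen lysyl hydroxylase. Its hairpin began 9 bases before the intron, in coding exon 13, and stopped 2 bases before the intron's end, so that only the opening GU is within the printed sequence. All 4 introns lay between coding exons.

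**Figure D1:**
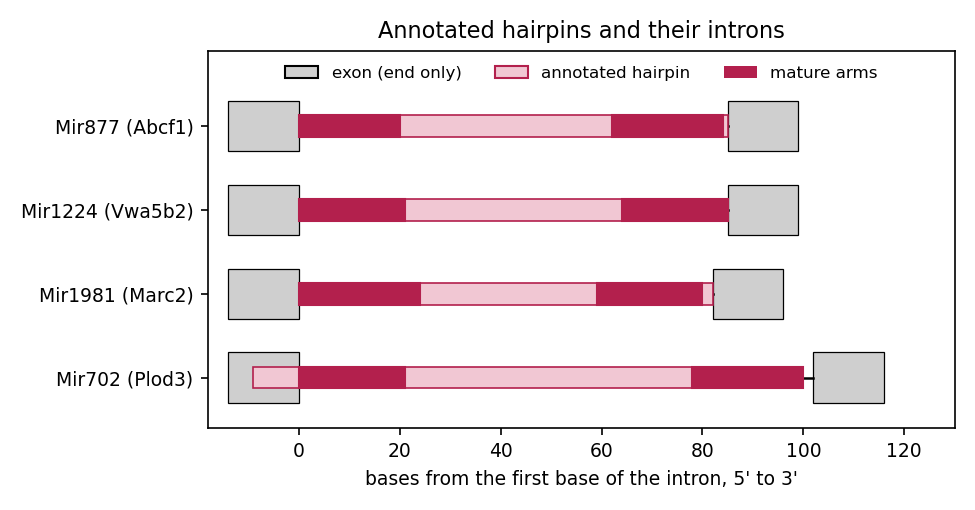
Positions of the 4 intron hairpins, in bases from the first base of the intron (x axis); grey boxes are the ends of the neighbouring exons, pale bars the annotated hairpins and dark bars the mature arms. The hairpins of Mir877, Mir1224 and Mir1981 span their introns from end to end, and that of Mir702 starts 9 bases upstream.

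Some of the mature sequences include bases of an annotated splice site. All are written with the seed, bases 2 to 8, in capitals, the stretch that leads pairing to target transcripts.
miR-877-5p: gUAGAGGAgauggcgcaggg
miR-1224-5p: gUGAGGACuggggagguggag
miR-1981-5p: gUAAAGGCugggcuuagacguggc
miR-702-5p: gUGAGUGGggugguuggcaug
miR-877-3p: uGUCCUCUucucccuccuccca
miR-1224-3p: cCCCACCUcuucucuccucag
miR-1981-3p: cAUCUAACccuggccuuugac
miR-702-3p: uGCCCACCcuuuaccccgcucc
miR-484: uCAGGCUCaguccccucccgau
miR-3102-5p: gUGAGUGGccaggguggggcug

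All 4 of the 5′ arms of the intron hairpins (names ending in 5p) began at the first base of the intron, and so with GU. Among all 697 mature 5′ arms in the RefSeq table, 37 (5.31%) began with GU on the mature strand. Of the 26 from genes with both hairpin ends within 10 bases of splice sites, these 4 included, 17 did. The 4 genes were chosen as mirtrons, so their GU starts follow from that choice. The start GUGAG, which matches the usual mammalian donor site, opened miR-1224-5p and miR-702-5p and 14 of the 697 arms (2.01%). The 3′ arms came from the stretch of the intron that carries the pyrimidine tract, so their pyrimidine content is likewise tied to that choice. Pyrimidines (C and U) made up 90.9% of miR-877-3p, 85.7% of miR-1224-3p, 81.8% of miR-702-3p and 66.7% of miR-1981-3p, against a median of 59.1% over 709 3′ arms.

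The 9 mature sequences of these genes had 9 different seeds. A single seed recurred elsewhere among the 1679 mature miRNAs of the table. The seed of miR-702-5p was that of miR-3102-5p, printed above for that reason, whose gene Mir3102 also fills an intron, in Arhgef17. The seed of miR-484 was found in no other mature miRNA of the table. Counts per gene do not tell the 5′ arm from the 3′ arm, so the values below are for a hairpin as a whole.

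As folded by ViennaRNA, the 5 hairpins with a sequence had fewer of their bases paired than the median hairpin. The Mir484 hairpin (67 bases) had 53.7% of its bases paired, and 11 of 869 hairpins of measured genes had a lower share. Pairing was 65.9% in Mir877, 66.1% in Mir702, 68.2% in Mir1224 and 68.3% in Mir1981, with a median of 69.4% over the 869. Over the 23 folded hairpins with both ends within 10 bases of splice sites, these intron hairpins included, the median was 68.4%. Folding energy per base, more stable when lower, was -0.504 kcal/mol in Mir1224, -0.435 in Mir702 and -0.429 in Mir877. These lay below the median of -0.413 over the 869, and Mir1981 (-0.370) and Mir484 (-0.367) above it. The median was -0.434 over the 374 hairpins of genes with 5 or more counts in each library, and -0.432 over the 23. Mir877 lay above both of these medians and Mir702 just below them. Mir702 left 11 bases unpaired at its 5′ end, which include the 9 exonic ones. The GC content was 53.7% in Mir1981 and 65.1% in Mir702, the ends of the range for these 5, against a median of 52.3%.

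The genes of the transcription-start type lay outside host introns. Mir320 was annotated at chr14:70443510-70443591 on the plus strand, intergenic and 63 bases from the start of Polr3d, a subunit gene of RNA polymerase III that runs in the opposite direction. Mir484 was annotated at chr16:14159626-14159692 on the plus strand, 359 bases from the nearest transcript start, which belongs to Marf1 on the minus strand. It overlaps a longer Marf1 transcript on the opposite strand, with 19 bases over a Marf1 exon and the rest over an intron.

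Mir484 and Mir320 were the abundant genes of the group, and the intron hairpins were far lower. Levels are gene-strand counts per 1000000 gene-strand counts of the library (CPM), with 5060112 such counts in replicate 1 and 4158686 in replicate 2. Reads of this size class cover a whole mature miRNA, so levels were not divided by length. Mir484 had 15651 counts (3093 CPM) in replicate 1 and 11465 (2757 CPM) in replicate 2. Its mean of 2925 ± 238 CPM (SD, n = 2) ranked 56th of the 1973 genes. Mir320 had 3396 counts (671 CPM) and 2558 counts (615 CPM), a mean of 643 ± 39.6 CPM and rank 107. In both genes replicate 1 was the higher library, and the exact Clopper-Pearson 95% intervals of the libraries, 3045 to 3142 against 2707 to 2808 CPM for Mir484 and 649 to 694 against 591 to 639 CPM for Mir320, did not overlap. These intervals cover counting error only and take no account of how the libraries are scaled.

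Within a library, the ratio of Mir484 to Mir320 does not depend on scaling. It was 4.61 in replicate 1 (exact 95% interval 4.44 to 4.78) and 4.48 in replicate 2 (4.29 to 4.68). These intervals overlapped, and the difference between the ratios of the libraries was not tested.

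Among the intron hairpins, Mir702 and Mir877 stood highest. Mir702 had 447 counts (88.3 CPM) in replicate 1 and 217 (52.2 CPM) in replicate 2, with a mean of 70.3 ± 25.6 CPM and rank 216. Mir877 had 403 counts (79.6 CPM) and 243 counts (58.4 CPM), with a mean of 69.0 ± 15.0 CPM and rank 217. Replicate 1 was higher for both genes, and the libraries' counting intervals did not overlap. Mir1981 had 225 counts (44.5 CPM) and 152 counts (36.6 CPM), with a mean of 40.5 ± 5.60 CPM. Mir1224 was the lowest, with 61 counts (12.1 CPM) and 49 counts (11.8 CPM), a mean of 11.9 ± 0.193 CPM. The intervals of the libraries overlapped for Mir1981 and Mir1224, the genes with the fewest reads.

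**Figure D2:**
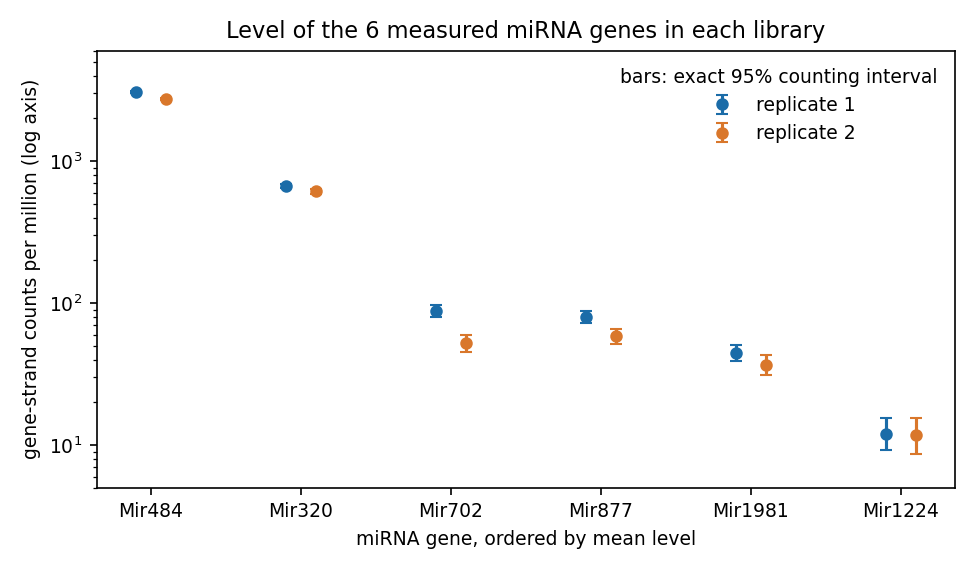
Level of each measured gene (x axis, by mean level) in CPM on a log axis, in replicate 1 and replicate 2; bars are exact 95% counting intervals. Mir484 and Mir320 lie above 600 CPM in both libraries and the 4 intron hairpins below 90 CPM.

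The order of the 6 genes held in both libraries for 14 of the 15 pairs. The exception was Mir702 and Mir877, whose ratio was 1.11 in replicate 1 (exact 95% interval 0.967 to 1.27) and 0.893 in replicate 2 (0.740 to 1.08). In neither library did these neighbours differ beyond counting error. Mir877 exceeded Mir1981 by 1.79 times in replicate 1 and 1.60 times in replicate 2. Mir1981 exceeded Mir1224 by 3.69 and 3.10 times. The largest step between neighbours was from Mir320 to Mir702, 7.60 times in replicate 1 and 11.8 times in replicate 2. The ranges of mean ± SD of Mir702 and Mir1981 overlapped, although Mir702 was the higher in each library.

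The 6 genes together held 0.399% of the gene-strand counts in replicate 1 (exact Clopper-Pearson 95% interval 0.393% to 0.404%) and 0.353% in replicate 2 (0.347% to 0.359%), a mean of 0.376% ± 0.0324 (SD, n = 2). Mir484 alone made up 77.5% and 78.1% of those counts, and Mir320 a further 16.8% and 17.4%. The 4 intron hairpins held 0.0225% and 0.0159% of all gene-strand counts.

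Neither library had a read of any of the 6 genes on the opposite strand, a count of 0 that still leaves room for 0.593 CPM in replicate 1 and 0.721 CPM in replicate 2, the worth of 3 counts. No stretch of 22 bases of these hairpins occurred in another of the 2202 miRNA genes searched on both strands. Multimapping reads are totalled separately from genes in the tables, so a shared stretch could lower a gene's count. The mature sequences of the 5 genes that had them occurred in no annotated transcript of another gene, on either strand. That of Mir320 was not searched, nor was the genome outside annotated transcripts.

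Whether the libraries differed beyond counting noise was asked with a two-sided exact binomial test of a gene's 2 counts. The p-values were adjusted by Benjamini-Hochberg over the 466 genes that had 10 or more counts in sum. Differences of pool and of library preparation cannot be told apart here. Library totals were first scaled with TMM, the trimmed mean of M values. Mir702 and Mir877 were lower in replicate 2, and the other 4 genes were not called. The log2 ratio of replicate 2 to replicate 1 was -0.61 for Mir702 (0.653-fold, adjusted p 6.00e-07 by the exact binomial test). It was -0.30 for Mir877 (0.811-fold, adjusted p 0.0229 by the same exact test). A difference was called for 45.3% of all tested genes, 21.9% of them lower and 23.4% higher in replicate 2, so 2 of 6 called does not exceed the background for either direction together. Reads enter this test as independent draws, and spread between pools is not modelled.

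Of the 273 genes with 100 or more counts in each library, 18 had a lower ratio than Mir702 and 61 a lower ratio than Mir877. The ratios of the remaining genes were near 0 or within counting noise. They were -0.02 for Mir484 (adjusted p 0.350), 0.02 for Mir320 (adjusted p 0.765), -0.14 for Mir1981 (adjusted p 0.545) and 0.11 for Mir1224 (adjusted p 0.822), all by the exact binomial test. The median of the 6 was -0.08, beside 0.01 over all 466 genes.

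Scaling decided several of these directions. Without TMM every ratio was lower by 0.14, all 6 genes were lower in replicate 2, and 4 were called lower and 0 higher, beside 33.3% of all genes called lower. The 2 genes added were Mir484 at -0.17 (adjusted p 3.75e-20, exact binomial test) and Mir320 at -0.13 (adjusted p 0.00229). Calls over all genes were then 67 higher and 155 lower, against 109 higher and 102 lower with TMM, and 47.6% of genes were called. Mir702 and Mir877 were lower under both scalings.

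**Figure D3:**
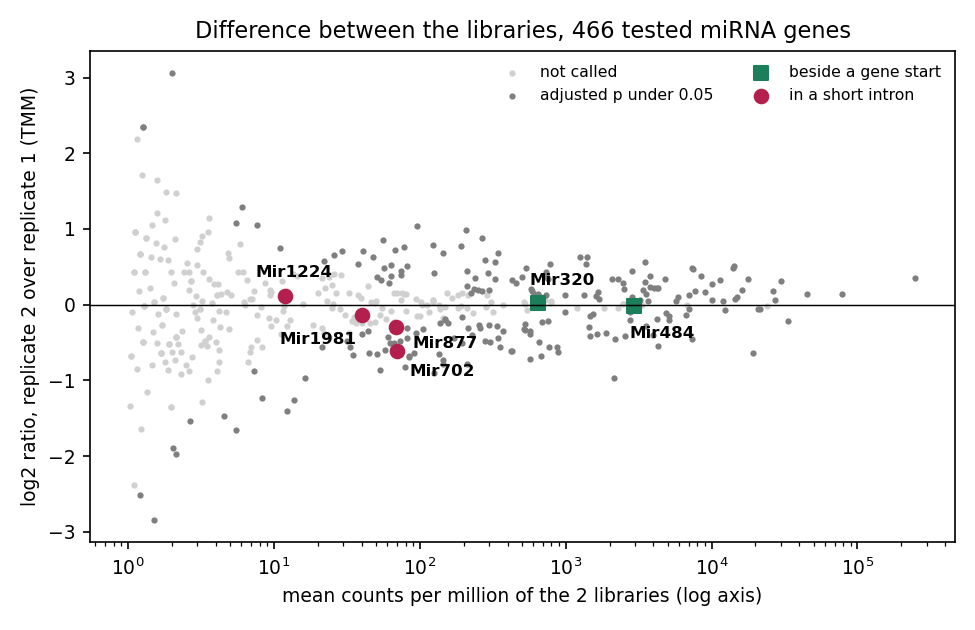
Log2 ratio of replicate 2 to replicate 1 after TMM scaling (y axis) against mean CPM (x axis, log) for the 466 tested genes; dark grey points have an adjusted p under 0.05, squares are Mir320 and Mir484 and large circles the 4 intron hairpins. Mir702 at -0.61 lies lowest of the 6 and Mir320 and Mir484 lie within 0.03 of 0.

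Lists drawn from the annotation place these genes among others of like position. The first holds 231 miRNA genes with a hairpin end within 10 bases of a splice site, 4 of them the intron hairpins above. Of the 231, 53 (22.9%) reached 5 counts in each library, beside 438 of all 1973 genes (22.2%). The list held 0.881% ± 0.258 of the counts (SD, n = 2), most of it from Mir369 at 4284 ± 1416 CPM and Mir382 at 3947 ± 1038 CPM. Both lie in introns of Mirg, a long non-coding RNA of the imprinted Dlk1-Dio3 region, with only 1 hairpin end at a splice site. Of 65 genes of this list with enough reads for the test, 9 were lower in replicate 2, 1 was higher and 55 were not called. That is 15.4% called, beside 45.3% of all tested genes, with a median log2 ratio of -0.09 beside 0.01. Among genes with 5 or more counts in each library, the median level was 2.90 CPM in this list and 66.7 CPM over all genes. A call depends on the number of reads, so the 2 shares are not like for like.

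Mirtron-like extent was rarer. In 29 genes of that list both hairpin ends lay within 10 bases of the splice sites of the same intron, a narrowing made after the counts were seen. Their introns ran from 67 to 137 bases. Of the 29 genes, 12 reached 5 counts in each library, and 7 were at 0 throughout. Mir702, Mir877, Mir1981 and Mir1224 ranked 1, 2, 4 and 6 by mean level and held 59.1% of the list's counts in replicate 1 and 60.4% in replicate 2.

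The other genes of this kind with the most reads have hosts of varied function. Mir6944, which fills an intron of 96 bases in Dbn1, the gene of the actin-binding protein drebrin of dendritic spines, had 388 counts in replicate 1 and 203 in replicate 2, a mean of 62.7 ± 19.7 CPM. Its level lay between those of Mir877 and Mir1981. Mir3102, in an intron of 104 bases of Arhgef17, had 239 and 136 counts and a mean of 40.0 ± 10.3 CPM, close to Mir1981. Mir3547, in Baiap3, had 44 and 10 counts, and Mir1982, in the antizyme gene Oaz1, had 27 and 13.

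**Figure D4:**
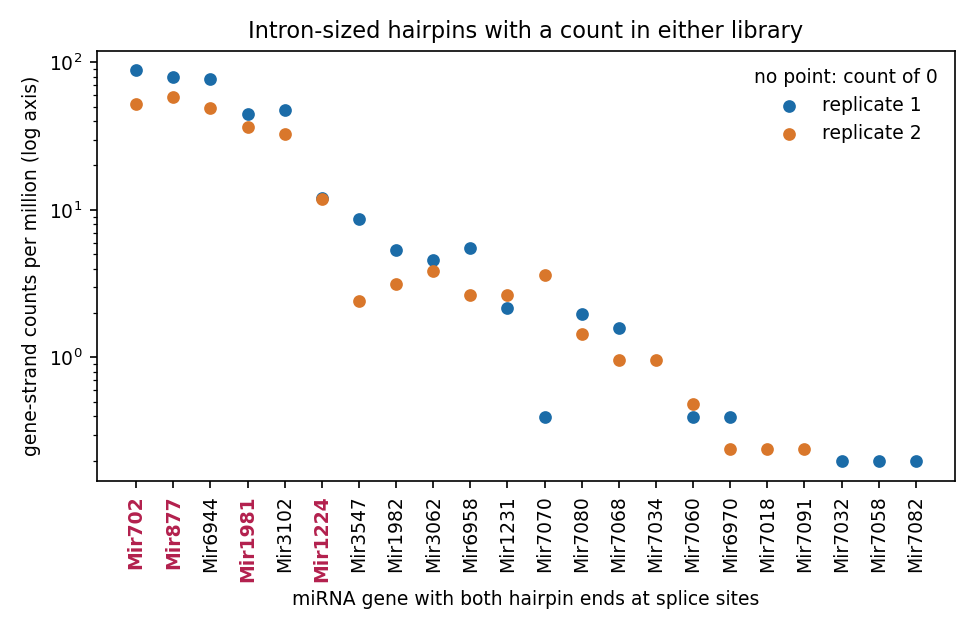
Level in CPM (y axis, log) in each library for the genes with both hairpin ends at splice sites and a count in either library; bold red names are Mir702, Mir877, Mir1981 and Mir1224, and a missing point is a count of 0. Levels fall from 70.3 CPM on average for Mir702 to single reads. In these CPM, which are not TMM-scaled, replicate 1 is the higher library in each of the first 10 genes. Without TMM the median log2 ratio over all tested genes was itself -0.14, and with TMM Mir1224 was higher in replicate 2 (0.11).

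Of 14 genes of the 29 with enough reads for the test, 5 were lower in replicate 2, 1 was higher and 8 were not called. The share called, 42.9%, was near the 45.3% of all tested genes. The 2 shares differ in depth, with a median of 8.73 CPM in this list and 66.7 CPM over all genes, among those with 5 or more counts in each library. Their median log2 ratio was -0.34, against -0.09 for the 65 tested genes of the list they were narrowed from. Without the 4 genes described above, 3 of 10 were lower, 1 was higher and 6 were not called, with a median of -0.44. These medians give genes with few counts, such as Mir1982 with 27 and 13, the same weight as the rest. Mir6944 had a log2 ratio of -0.51 (adjusted p 0.000135, exact binomial test), Mir3102 of -0.38 (adjusted p 0.0282) and Mir3547 of -1.66 (adjusted p 0.000768). The gene called higher, Mir7070, had 2 counts in replicate 1 and 15 in replicate 2 and was named after its values were seen.

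The second list holds 247 miRNA genes within 300 bases of the start of another annotated transcript, on either strand. It includes Mir320, at rank 18 by mean level, and Mir702, at rank 30 because a short Plod3 transcript starts 83 bases away. Mir484, at 359 bases, falls outside it. The list held 15.1% ± 0.0646 of the counts and was led by Mirlet7i at 45210 ± 8.69 CPM, Mir126a at 17805 ± 1689 CPM, Mir93 at 15041 ± 272 CPM and Mir137 at 12348 ± 1260 CPM, all far above Mir320. Of 79 genes tested, 18 were higher in replicate 2, 11 were lower and 50 were not called, which is 36.7% called beside 45.3% of all tested genes. Depth differed here too, with a median of 38.2 CPM beside 66.7 CPM over all genes, among those with 5 or more counts in each library. The third list, miRNA genes over a small nucleolar or Cajal body RNA gene, had 0 members among the measured genes.

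The neural miRNA markers of forebrain were uneven in level. Of 10 measured neural marker genes, 9 reached 5 counts in each library, and together they reached 19597 CPM in replicate 1 and 18695 CPM in replicate 2. Most of this sum came from Mir137 at 12348 ± 1260 CPM and from Mir128-1 and Mir128-2 at 3810 ± 445 and 2065 ± 203 CPM (SD, n = 2). The Mir124a-1, Mir124a-2 and Mir124a-3 genes stood at 4.27, 1.77 and 1.07 CPM and Mir9-2 at 3.62 CPM, while Mir9-3 stood at 717 CPM. Mir124a and Mir9 each have several gene copies, and the tables assign no multimapping reads to genes. Markers of other cells were present as well. Endothelial Mir126a stood at 16611 and 18999 CPM, Mir204 and Mir449a of choroid plexus and ciliated epithelium together at 4239 and 4406 CPM, 4 measured blood and microglial genes at 378 and 374 CPM, and hepatocyte Mir122 at 97.8 and 64.9 CPM. Mir142b of the blood genes had 0 gene-strand counts, but 926 reads in replicate 1 and 941 in replicate 2 lay on its opposite strand. Of 4 measured muscle genes, Mir1a-1, Mir133a-1 and Mir133a-2 were at 0 and the list stood at 18.8 and 25.2 CPM. Mir1a and Mir133a also have further gene copies, so these counts of 0 do not show that the miRNAs were absent. The part of these cells in the difference of Mir702 and Mir877 between the libraries was not tested.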

How the data were processed

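Per the deposited file descriptions, the authors placed reads on mm10 with the GENCODE M4 annotation and deposited raw read counts per gene, without regard to strand and for each strand. The sources used here do not name the aligner, counting tool or trimming. The gene-strand count was used. Rows of unassigned reads, which held 40.5% of reads as mapping to several loci and 19.1% as unmapped in replicate 1 and 43.3% and 15.2% in replicate 2, stayed out of totals and tests.

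Symbols, positions, hosts and starts came from GENCODE M21 (GRCm38, the assembly mm10 names), and sequences from RefSeq. TMM and DESeq2 factors were computed with edgeR 4.0.16 and DESeq2 1.42.0 in R 4.3.3 over genes with 10 or more counts in sum. Exact tests and intervals used scipy 1.17.1, and hairpins were folded with ViennaRNA 2.7.2. Log2 ratios add 0.5 to each count, and the threshold was an adjusted p of 0.05. The test was tried on simulated data with counting noise only, which cannot show how it behaves with spread between pools. The labels describe the libraries as biological replicates, and no molecular identifiers are described.

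Members and lists were chosen with earlier results of these data known. Named genes are the members, the 4 other genes with the highest mean CPM in each annotation list, and Mir451a. Alternatives were other scalings, count filters, count columns and denominators, an added count of 1, and leaving out each replicate.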

Additional observations from a re-analysis of the deposited data

How the results depend on the processing

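The share of counts held by the 6 genes was 0.141% ± 0.0102 with all reads, unassigned ones included, as the denominator, 0.369% with counts without regard to strand, and 0.353% to 0.399% when each replicate was left out. Of the 6 genes, 4 were called different with unscaled totals in place of TMM, against 2 under TMM and under the other 4 alternatives. Over all tested genes the share called was 47.6% with unscaled totals, 45.3% with TMM and 29.4% with no filter on low counts. It was 45.9% to 47.0% under the rest. With unscaled totals the log2 ratio of Mir320 turned from 0.02 to -0.13 and that of Mir1224 from 0.11 to -0.030, since every ratio shifts by 0.14. The call of Mir877 is close to the threshold, with an adjusted p by the exact binomial test between 0.000354 and 0.0344 over its alternatives. Mir702 was called under all of them. No paired analysis was possible because both libraries form a single group. Depth limits Mir1224 most, with 61 and 49 counts, and 2 libraries give no measure of how often a difference of this size arises between pools.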

Other observations

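Mir451a, an erythroid miRNA whose precursor is cut by Ago2 in place of Dicer after a Drosha cut, had 1207 counts in replicate 1 and 634 in replicate 2. Its mean of 195 ± 60.9 CPM (SD, n = 2) lay between those of Mir320 and Mir702. Its log2 ratio of replicate 2 to replicate 1 was -0.50 (adjusted p 3.23e-12, exact binomial test). Mir668 was measured as the most abundant gene after Mir369 and Mir382 among those with a hairpin end at a splice site, and nothing in these data addresses how it is processed. Lying in an intron of 92 bases of Mirg, it starts 1 base before the donor site and ends 27 bases before the acceptor, so that its hairpin meets 1 splice site. It had 584 and 279 counts, a mean of 91.3 ± 34.2 CPM, above each of the intron hairpins of the report, and a log2 ratio of -0.64 (adjusted p 2.53e-09, exact binomial test).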
